A study of Mus musculus with 6 samples.

Results

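Ctla4, Cd28, Icos, Pdcd1, Btla, Cd160, Lag3 and Havcr2 encode receptors of the CD28 family and other checkpoint receptors, and their transcripts were followed in 2 groups of natural killer (NK) cells from mouse spleen. The 8 genes were taken by exact gene name from a table of 27763 gene rows, and each matched 1 row. Libraries carried the names cNK and DN NK, with 3 replicates each. All came from C57BL/6 wild-type mice at 6 weeks of age, with no treatment named in the labels. The labels spell out neither name and give no surface markers for the sort, so whether any receptor described here helped to separate the groups is not known. Nor do they tie the replicates of a group to different animals: the p-values below reflect variation among the 6 libraries, which may be technical. From its title, the study concerns immature NK cells that reside in the spleen.

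CD28 and ICOS are costimulatory receptors of the immunoglobulin superfamily, best known from T cells, where they add a second signal to that of the antigen receptor. CTLA-4 binds the same ligands as CD28, CD80 and CD86, with higher affinity and so restrains costimulation. PD-1 (Pdcd1) and BTLA carry inhibitory tyrosine motifs that recruit the phosphatases SHP-1 and SHP-2. BTLA and CD160 both bind HVEM (Tnfrsf14), LAG-3 is a CD4-related receptor that binds MHC class II, and TIM-3 (Havcr2) binds galectin-9 among other ligands. Several of them are upregulated on activated or chronically stimulated lymphocytes, and CD160, LAG-3 and TIM-3 are known on NK cells.

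In DN NK, transcripts of 6 of the 8 receptors were clearly present and higher than in cNK. Btla was 50.9-fold, Ctla4 18.4-fold, Lag3 9.41-fold, Cd160 2.40-fold, Icos 1.85-fold and Cd28 1.54-fold higher, by edgeR's quasi-likelihood test with Benjamini-Hochberg adjustment over all tested rows. Pdcd1 and Havcr2 stayed near the limit of detection in both groups. Rows with at least 1 FPKM (fragments scaled to transcript length and library size) in at least 3 libraries were tested, 11690 in all. Of these 30.8% were higher in DN NK at an adjusted p under 0.05, 30.9% were lower, and 7.9% were higher by at least 2-fold. The 6 tested receptors were all higher, but Ctla4 and Btla passed the filter through DN NK alone and so had to differ. Without a filter, 7 of the 8 were higher and Havcr2 did not pass, where 15.3% of all 27763 rows were higher. In 7 of 8 receptors every DN NK library lay above every cNK library, which held for 21.8% of all rows. Bulk libraries cannot tell a change in RNA per cell from a change in the share of cells that hold the transcript.

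**Figure D1:**
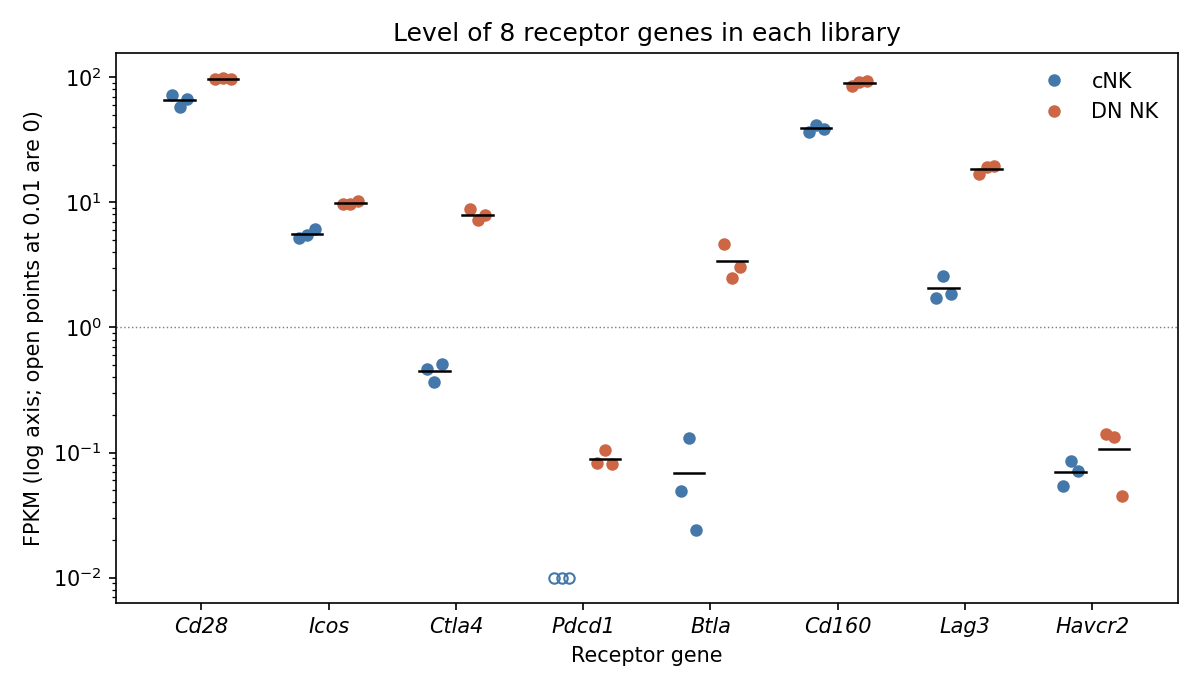
FPKM of the 8 receptor genes in each of the 6 libraries, on a log axis; points are libraries, short lines group means, the dotted line 1 FPKM, and open points at the bottom are values of 0. DN NK points lie above all cNK points for every gene except Havcr2, whose groups overlap.

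The libraries held estimated counts of 79798234 to 89526647, and 1 read pair was worth about 3.77 of them. Transcripts listed as NK lineage markers were present in both groups, with Ncr1 (NKp46) at 396 ± 45.5 FPKM in cNK and 206 ± 23.2 in DN NK (mean ± SD, n = 3 libraries per group, as for all means below). The 12 on the list summed to 8524 to 9220 FPKM in cNK and 2683 to 3094 in DN NK. All 12 NK lineage markers were lower in DN NK, where 30.9% of all tested rows were lower. Their median log2 fold change was -1.13, against -0.02 over all tested rows. Along the first principal component (82.8% of variance) the cNK libraries all lay on one side and the DN NK libraries on the other.

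The gene starts of 5 of the 8 receptors are in the RefSeq promoter table, on GRCm38.p6, as 6 windows, since Cd160 has 2 starts. The windows of the 3 receptors that passed the filter, rose at least 2-fold and have an entry are shown as the 250 bases before each start, 5′ to 3′. Capitals mark matches, on either strand, to 6 short motifs of lymphocyte transcription factors: GGTGTGA (T-box), GGAAAA (NFAT), TGANTCA (AP-1), CTTTGA (TCF/LEF), TGTGGT (RUNX) and GGAAGT (ETS). No marked matches overlap one another. The Ctla4 window and the window of the second Cd160 start lie inside the deposited gene spans, and the Btla window reaches into the first bases of its span.
Ctla4, chr1:60908775-60909024, plus strand: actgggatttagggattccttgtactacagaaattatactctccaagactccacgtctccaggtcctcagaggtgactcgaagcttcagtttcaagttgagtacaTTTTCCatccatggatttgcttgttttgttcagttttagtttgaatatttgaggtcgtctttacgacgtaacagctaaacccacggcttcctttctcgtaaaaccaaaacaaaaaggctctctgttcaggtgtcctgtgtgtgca
Btla, chr16:45224087-45224336, plus strand: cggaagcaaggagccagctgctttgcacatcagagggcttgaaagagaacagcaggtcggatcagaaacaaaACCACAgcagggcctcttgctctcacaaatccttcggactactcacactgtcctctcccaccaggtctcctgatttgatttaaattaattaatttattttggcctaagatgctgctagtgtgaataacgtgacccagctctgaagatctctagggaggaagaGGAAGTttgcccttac
Cd160, first start, chr3:96829352-96829601, minus strand: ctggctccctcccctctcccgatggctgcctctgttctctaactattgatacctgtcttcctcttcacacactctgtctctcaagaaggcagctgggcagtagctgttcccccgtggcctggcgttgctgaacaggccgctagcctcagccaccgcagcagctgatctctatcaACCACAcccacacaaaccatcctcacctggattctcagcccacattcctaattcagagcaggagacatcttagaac
Cd160, second start, chr3:96814522-96814771, minus strand: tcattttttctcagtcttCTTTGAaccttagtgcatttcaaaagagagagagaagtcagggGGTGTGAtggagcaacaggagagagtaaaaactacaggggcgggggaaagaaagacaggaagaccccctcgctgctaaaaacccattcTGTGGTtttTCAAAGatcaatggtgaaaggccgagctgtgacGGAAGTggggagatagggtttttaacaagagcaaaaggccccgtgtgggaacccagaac
The Ctla4 window holds 1 match, TTTTCC, the reverse strand of the NFAT letters, with its first base at -145 from the start. NFAT letters occur in 20.4% of 32851 windows of the same length. In the Btla window ACCACA, the reverse strand of the RUNX letters, lies at -178 and the ETS letters GGAAGT at -16. RUNX letters occur in 14.0% of all windows and ETS letters in 19.7%. The window of the second Cd160 start holds 5 matches. They are the T-box letters GGTGTGA at -189, which 3.33% of all windows hold, TCF/LEF letters at -232 and -92 (13.8% of windows), RUNX letters at -101 and ETS letters at -59. Transcripts of the T-box factors Tbx21 (T-bet) and Eomes were lower in DN NK, at 71.1 ± 7.66 against 124 ± 7.23 FPKM and 69.1 ± 1.85 against 154 ± 5.46 FPKM. The TCF/LEF factor gene Tcf7 was higher, at 196 ± 3.94 against 126 ± 3.71 FPKM. Whether these factors act on Cd160 was not tested. The first Cd160 window holds 1 match, the reverse strand of the RUNX letters at -76. The Pdcd1 window has no match to any of the 6 motifs, which says only that these letters are not in it. A match is a description of the sequence and not a measured binding site.

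Cd28 was the most abundant of the receptors in both groups. It stood at 72.6, 58.4 and 66.5 FPKM in cNK replicates 1, 2 and 3 and at 96.1, 98.7 and 97.0 FPKM in DN NK replicates 1, 2 and 3. Every DN NK library was above the highest cNK library, and the DN NK values lay closer together. The log2 fold change was 0.62 (SE 0.08, adjusted p = 0.000286 by edgeR). At 97.4% in cNK and 98.3% in DN NK, its mean FPKM ranked near the top of all 27763 rows, counted as percentiles from the bottom. A change of this size is common, since 16.3% of tested rows had at least this log2 fold change.

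Icos, the inducible costimulator, was about an order of magnitude below Cd28. In cNK it stood at 5.17, 5.46 and 6.13 FPKM, and in DN NK at 9.73, 9.70 and 10.3 FPKM. The groups did not overlap, and the log2 fold change was 0.89 (SE 0.07, adjusted p = 1.81e-05 by edgeR). Of the tested rows 9.88% had at least this log2 fold change.

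Ctla4 went from a trace in cNK to a moderate level in DN NK. The cNK libraries held 0.466, 0.366 and 0.514 FPKM, from 113, 86 and 116 estimated counts. The DN NK libraries held 8.79, 7.28 and 7.87 FPKM, from 1935, 1589 and 1699 estimated counts. No DN NK value came near the cNK range. The log2 fold change was 4.20 (SE 0.16, adjusted p = 3.07e-07 by edgeR), and 1.01% of tested rows had at least this value. The ratio of summed counts, per library total, had an exact 95% binomial interval of 14.2 to 22.4, which covers counting error only. On the log2(FPKM + 1) scale with limma the difference was 2.63, since adding 1 compresses the low cNK values.

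Cd28, Ctla4 and Icos lie side by side on the plus strand of chromosome 1, in that order, within 283.5 kb (GRCm38). The deposited gene spans are 60716800 to 60773359 for Cd28 (ENSMUSG00000026012), 60887000 to 60915832 for Ctla4 (ENSMUSG00000026011) and 60977927 to 61000320 for Icos (ENSMUSG00000026009). No other tested row lies in the gaps of 113641 bp between Cd28 and Ctla4 and 62095 bp between Ctla4 and Icos. The next tested row beyond Icos, Ino80d, lies 1958098 bp away and was at 6.96 ± 0.153 FPKM in cNK and 6.84 ± 0.0680 in DN NK (log2 fold change 0.04, adjusted p = 0.512, which did not pass). Inside the Ctla4 span the table lists the processed pseudogene Rpl18-ps1, at 5.25 ± 0.835 FPKM in cNK and 3.98 ± 0.583 in DN NK. It shares 0 exon bases with Ctla4 in GENCODE M21, and its log2 fold change of -0.34 did not pass (adjusted p = 0.133 by edgeR).

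**Figure D2:**
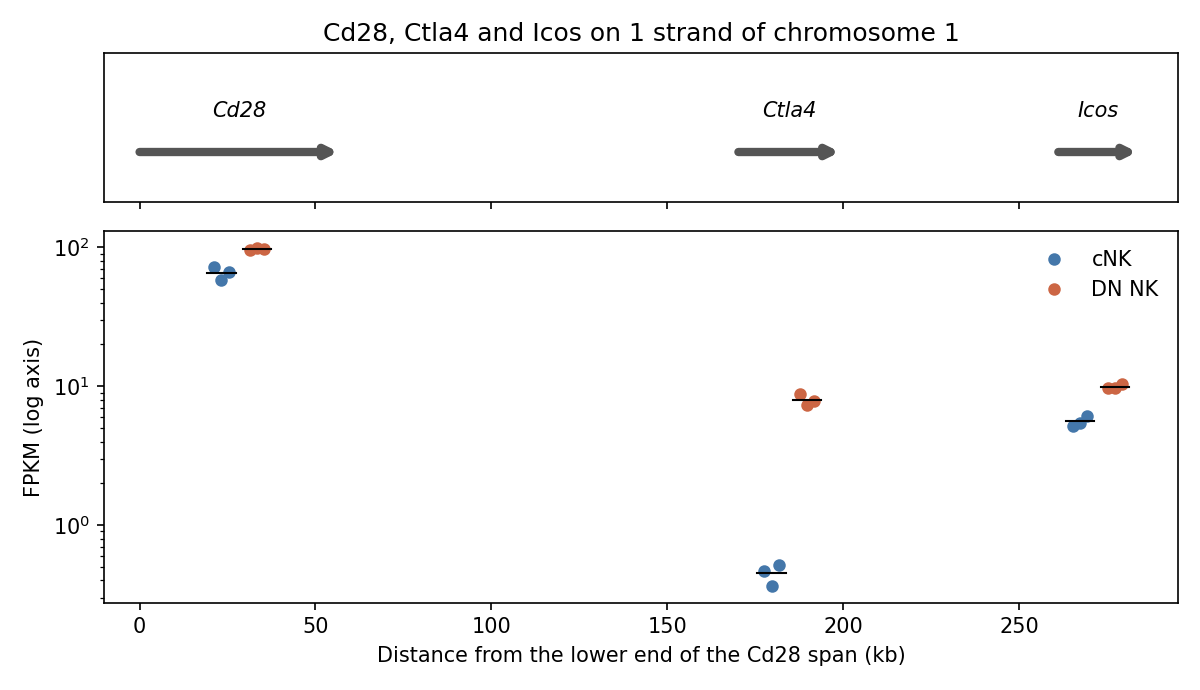
Upper panel, the spans of Cd28, Ctla4 and Icos as arrows in the direction of transcription against distance in kb; lower panel, FPKM of each gene in each library (points) with group means (lines) on a log axis. Ctla4 moved from a mean of 0.449 to 7.98 FPKM between neighbours that changed less than 2-fold.

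Since CTLA-4 and CD28 compete for the same ligands, the level of Ctla4 relative to Cd28 was compared between the groups. FPKM is per length, so the 2 genes can be set against each other. Ctla4 was at 0.680% ± 0.0795 of the Cd28 level in cNK and at 8.22% ± 0.888 in DN NK (SD, n = 3 each). The log2 ratio, with 0.1 added to each FPKM, was -6.91 ± 0.13 in cNK and -3.59 ± 0.15 in DN NK, a difference of 3.32. All 3 DN NK libraries lay above all 3 cNK libraries. Ctla4 changed far more than Cd28, so this separation restates their fold changes and is no further support. The exact 2-sided permutation test gave p = 0.10, the smallest that 3 against 3 allows, so the design cannot reach 0.05 here. Cd28 stayed the more abundant transcript in every library.

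Pdcd1, the gene of PD-1, was barely detected. It was listed at 0 in all 3 cNK libraries and at 0.0830, 0.104 and 0.0806 FPKM in the DN NK libraries. These values rest on 16, 19 and 15 estimated counts, or about 13 read pairs over the group. Taking 3 read pairs (11.3 estimated counts) as the most that a cNK total of 0 allows, Pdcd1 was at least 4.75-fold higher in DN NK. The exact 95% binomial lower limit of the ratio, from 0 and 13 read pairs, was 3.28. It lay below the filter, and without a filter it passed edgeR's test with an adjusted p of 0.00593. With the replicate number as a block the call was lost (adjusted p = 0.0705). Pdcd1 (ENSMUSG00000026285) occupies 94038305 to 94052553 of chromosome 1, minus strand.

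Btla rose from a trace and had the largest standard error of the 6 tested receptors in edgeR's fit. Its cNK libraries held 0.0494, 0.131 and 0.0239 FPKM from 17, 43 and 8 estimated counts, about 18 read pairs in all. Its DN NK libraries held 4.68, 2.49 and 3.05 FPKM, with replicate 1 the highest. The groups did not overlap, and the log2 fold change was 5.67 (SE 0.58, adjusted p = 0.000464 by edgeR). The ratio of summed counts had an exact 95% binomial interval of 31.1 to 83.8. Without cNK replicate 2, which held most of the cNK counts, the log2 fold change was 6.51, and with limma on log2(FPKM + 1) it was 2.01, below Lag3 at 2.68 and Ctla4 at 2.63 on that scale. Btla (ENSMUSG00000052013) spans 45224315 to 45252895 on the plus strand of chromosome 16.

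Cd160 was the second most abundant receptor in both groups. It stood at 36.6, 41.7 and 38.8 FPKM in cNK and at 84.8, 91.0 and 93.4 FPKM in DN NK. Every DN NK library exceeded the cNK range. The log2 fold change was 1.26 (SE 0.05, adjusted p = 6.04e-07 by edgeR), and 5.69% of tested rows had at least this value. Cd160 (ENSMUSG00000038304) is a minus-strand gene of chromosome 3, from 96798763 to 96829351. Its exons share 68 bases with those of Pdzk1 on the opposite strand, which the unstranded kit cannot separate, but Pdzk1 was at 0.0229 ± 0.00378 FPKM in cNK and 0.313 ± 0.0369 in DN NK.

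Because BTLA and CD160 share the ligand HVEM, their levels were compared in the same way. Btla was at 0.171% ± 0.131 of the Cd160 level in cNK and at 3.84% ± 1.48 in DN NK. The log2 ratio with 0.1 added to each FPKM went from -7.91 ± 0.40 to -4.73 ± 0.51, a difference of 3.18, with all DN NK libraries above all cNK libraries. The exact 2-sided permutation p was again 0.10, the smallest possible, also after adjustment over the 2 pairs compared. The size depended on the pseudocount, at 0.83 with 1 added and 4.44 with 0.01 added. Btla changed far more than Cd160, so the separation of the libraries here too restates their fold changes.

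Lag3 was low but detected in cNK, at 1.72, 2.58 and 1.85 FPKM. In DN NK it stood at 16.8, 19.1 and 19.6 FPKM. A wide gap separated the groups. The log2 fold change was 3.23 (SE 0.15, adjusted p = 2.30e-06 by edgeR), and 1.58% of tested rows had at least this value. Lag3 (ENSMUSG00000030124) sits on chromosome 6, minus strand, from 124904361 to 124911705. Its nearest tested neighbours are Ptms, 1976 bp away, which fell 1.27-fold (adjusted p = 0.0154), and Cd4, 16140 bp away on the same strand, which rose from 0.0160 ± 0.0202 to 3.51 ± 0.290 FPKM (adjusted p = 0.000152 by edgeR).

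Havcr2, the gene of TIM-3, was close to the limit of detection in both groups. It held 0.0540, 0.0851 and 0.0716 FPKM in cNK and 0.140, 0.133 and 0.0450 FPKM in DN NK, from 12 to 36 estimated counts per library. The groups overlapped, since DN NK replicate 3 was the lowest of all 6 libraries. Without a filter the log2 fold change was 0.56 (SE 0.58, adjusted p = 0.507 by edgeR). The counting interval of the ratio ran from 0.742 to 3.01, so a difference in either direction within it was not detectable at this depth. Its row (ENSMUSG00000020399) spans 46454935 to 46481255 on the plus strand of chromosome 11.

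**Figure D3:**
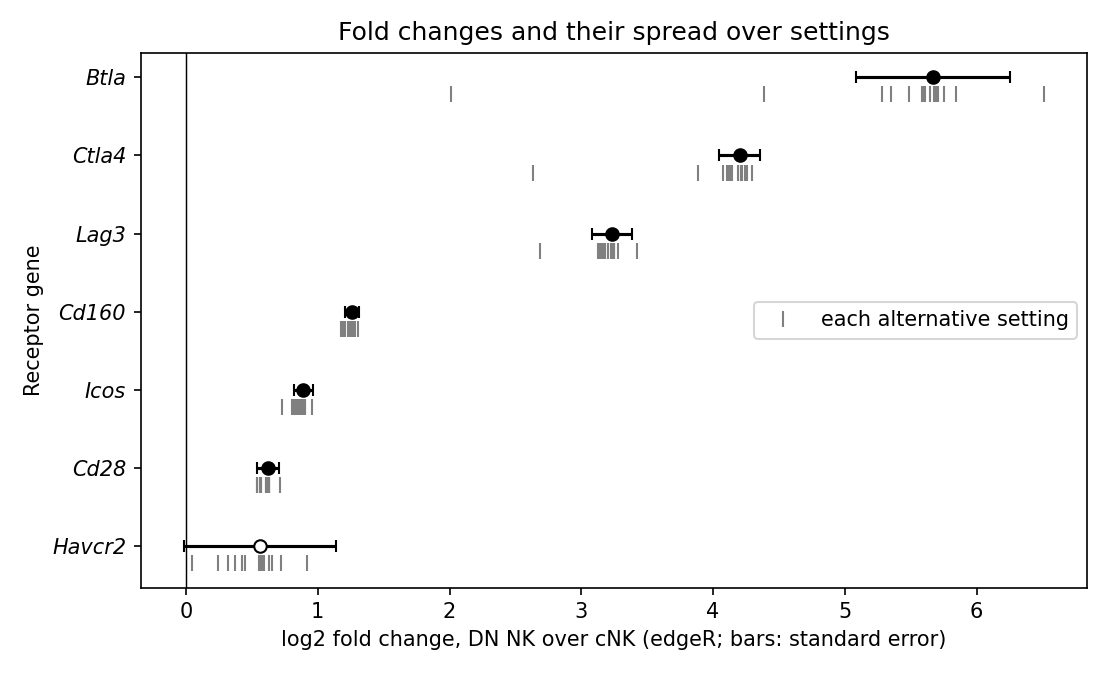
Log2 fold change of 7 receptor genes, DN NK over cNK, from edgeR (points, filled where tested with the filter, open for Havcr2 without it; bars are standard errors), with each alternative setting as a grey tick. Pdcd1 is left out because it was 0 in all cNK libraries; Btla ran from 2.01 to 6.51 over the settings and Cd160 from 1.18 to 1.31.

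The order of the receptors by mean FPKM differed between the groups in the middle of the scale. In cNK it ran Cd28, Cd160, Icos, Lag3 and Ctla4, followed by Havcr2 and Btla, whose library ranges overlapped, and Pdcd1 at 0. In DN NK it ran Cd28, Cd160, Lag3, Icos, Ctla4 and Btla, followed by Havcr2 and Pdcd1, whose ranges overlapped. Ranges of the other neighbours in each order did not overlap, although Icos at 9.70 to 10.3 FPKM and Ctla4 at 7.28 to 8.79 FPKM lay close in DN NK. The 8 genes summed to 108.6 to 116.7 FPKM in cNK and 221.1 to 231.3 FPKM in DN NK. Cd28 gave 58.1% ± 4.28 of that sum in cNK and 42.9% ± 0.819 in DN NK, and Lag3 1.83% ± 0.481 and 8.15% ± 0.465.

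**Figure D4:**
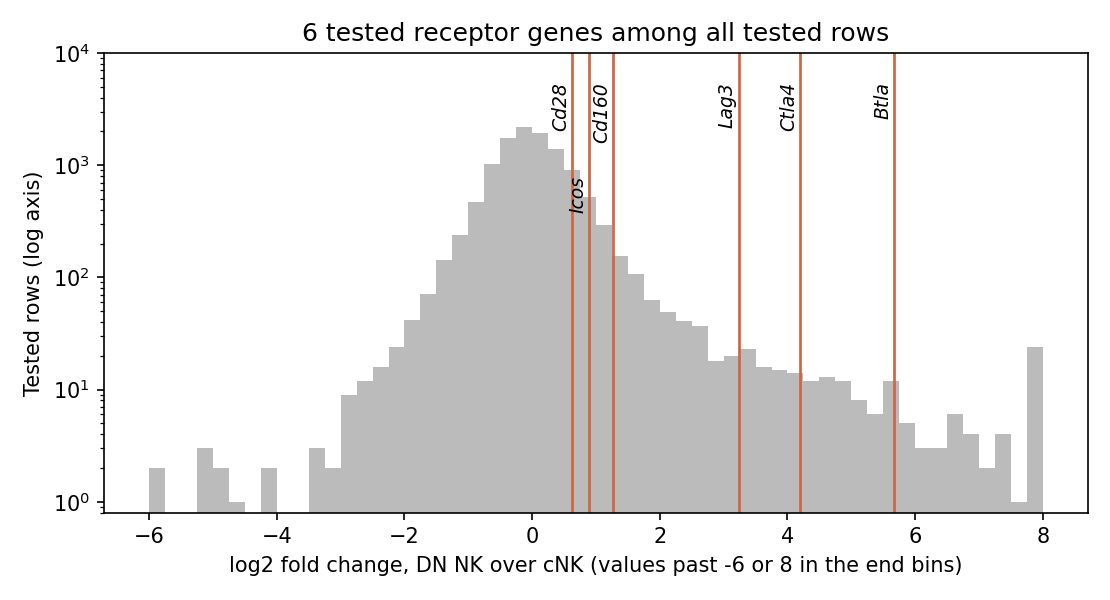
Log2 fold changes of all 11690 tested rows (grey bars, log axis of row numbers) with the 6 tested receptors as vertical lines. At or beyond Btla, Ctla4 and Lag3 lie 0.479%, 1.01% and 1.58% of tested rows; without a filter, where low rows enter, 1.87%, 5.72% and 11.3% of all 27763 rows had at least their log2 fold change.

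The genes with the most similar level and difference were found as the tested rows at the smallest Euclidean distance over log2(FPKM + 0.1) in the 6 libraries. For Ctla4 they were Lta, Tmem176a and Cd79b (distances 0.698, 0.834 and 0.891). Lta, which encodes lymphotoxin alpha, went from 0.472 ± 0.205 to 8.83 ± 0.522 FPKM. For Btla they were Tnfsf11, Gpr15 and Fcmr (0.609, 0.676 and 0.771), with Tnfsf11, the gene of RANKL, going from 0.0900 ± 0.0707 to 2.89 ± 0.473 FPKM. Lag3 was nearest to Fam110a, Cables1 and Gpr183 (0.876, 0.948 and 1.07). Cd28 lay next to Tatdn2, Mgea5 and Mapkapk2 (0.168, 0.269 and 0.278), Icos to Ddx20, Hip1 and Dhx36 (0.241, 0.264 and 0.268), and Cd160 to Impact, Cdk11b and the row listed as Mir5125 (0.480, 0.515 and 0.542).

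Ligands of the receptors were also transcribed in these cells. Of 14 ligands and counter-receptors, 8 were tested, 4 were higher and 4 lower in DN NK, with a median log2 fold change of 0.27. This count and those of the lists below stand beside 30.8% higher and 30.9% lower of all tested rows, and no list was tested against them. Tested list genes under 1 FPKM in every cNK library passed the filter through DN NK alone and so had to differ. Icosl, the ligand of ICOS, rose from 3.54, 3.82 and 3.36 to 9.52, 11.1 and 10.6 FPKM (log2 fold change 1.60, adjusted p = 1.17e-06 by edgeR). Cd274, which encodes the PD-1 ligand PD-L1, rose from 22.8 ± 3.04 to 56.8 ± 4.01 FPKM. Pdcd1lg2 (PD-L2) and Tnfsf14 (LIGHT, another HVEM ligand) rose by log2 fold changes of 0.83 each. Tnfrsf14, the gene of HVEM, fell by 0.49 on the log2 scale, from 10.5 ± 0.357 to 7.18 ± 1.28 FPKM. Lgals9 (galectin-9) fell by 0.63 and Lgals3 by 1.39. Cd86 and Cd80, the ligands of CD28 and CTLA-4, lay below the filter, at 0.851 ± 0.181 and 0.224 ± 0.0457 FPKM in DN NK against 0.356 ± 0.0183 and 0.0234 ± 0.0192 in cNK. Without a filter both passed, with adjusted p of 0.000419 and 0.00411 by edgeR.

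Other receptors of the same kind went both ways. Among 9 matched inhibitory checkpoint receptors, 8 were tested, with 3 higher, 3 lower and 2 not past the test. Cd200r1, the receptor for CD200, rose by a log2 fold change of 3.72 from 0.491 ± 0.113 FPKM, and Cd96 by 0.44, whereas the collagen receptor gene Lair1 fell by 1.57 and Cd244 (2B4) by 0.81. Tigit was at 64.5 ± 9.72 and 55.4 ± 5.06 FPKM and did not pass. Of 10 other costimulatory receptors 8 were tested, with 3 higher, 2 lower and 3 not past. Tnfrsf25 (DR3) rose by 5.07 to 11.1 ± 0.410 FPKM, Tnfrsf4 (OX40) by 1.14 and Cd226 (DNAM-1) by 1.02, while Cd2 fell by 1.61 and Cd27 by 0.41.

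Signalling genes that act below CD28-family receptors went both ways. All 20 on the list were tested, and 6 were higher, 11 lower and 3 not past, beside 30.8% higher and 30.9% lower of all tested rows. Their median log2 fold change was -0.23. Lrba, whose product protects CTLA-4 from lysosomal degradation, rose from 2.82, 2.71 and 2.58 to 4.11, 4.11 and 4.27 FPKM (log2 fold change 0.68, adjusted p = 1.55e-05 by edgeR). The ubiquitin ligase gene Cblb rose by 0.67. Pik3r1, the regulatory subunit of PI3K, fell by 0.88, and the Src-family kinase genes Fyn and Lck fell by 0.52 and 0.45. The phosphatase genes Ptpn6 (SHP-1) and Ptpn11 (SHP-2) fell by 0.34 and 0.20.

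Of 20 transcription factors tied to checkpoint receptor genes, 19 were tested, with 8 higher, 5 lower and 6 not past, and a median log2 fold change of 0.35. Irf4, a factor induced by antigen-receptor signals, rose from 0.535 ± 0.0735 to 13.8 ± 1.88 FPKM (log2 fold change 4.74, adjusted p = 8.01e-07 by edgeR). Ikzf2 (Helios) rose by 2.61 and Tox, a factor of exhausted and developing lymphocytes, by 1.37. Prdm1 (Blimp-1) fell by 1.45. Over the 5 pathway lists together, 63 of 73 matched genes were tested, 24 were higher and 25 lower (30.8% and 30.9% of all tested rows), and the median log2 fold change was 0.03 against -0.02 over all tested rows.

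Transcripts of other lymphocytes stood beside the receptors in DN NK, and their part in the receptor results was not tested. The 16 T cell markers summed to 573 to 592 FPKM in cNK and 707 to 751 in DN NK, most of it Trbc1 and Trbc2. Of the 10 tested, 8 were higher and 2 lower. Thy1 and Ubash3a were the lower ones, with Thy1 at 54.4 ± 0.380 FPKM in cNK and 37.1 ± 3.18 in DN NK. Trbc1 was at 351, 368 and 356 FPKM in cNK and 412, 424 and 436 in DN NK. Trbc2 was at 131 ± 4.15 and 174 ± 6.86, Cd3d at 4.54 ± 0.358 and 38.5 ± 0.873, and Cd3g at 3.39 ± 0.133 and 17.3 ± 0.750. Cd4, already described beside Lag3, was also among those higher. Cd3e was at 0.0218 ± 0.0214 FPKM in cNK and 0.846 ± 0.122 in DN NK, Cd5 at 0.0681 ± 0.0281 and 0.606 ± 0.0447, and Cd8b1 at 0 in 2 of 3 DN NK libraries. Cd8a was at 0.0105 ± 0.0104 and 0.116 ± 0.0441 FPKM, and Cd6 at 0.0111 ± 0.0193 and 0.354 ± 0.108. Without a filter 12 of the 16 T cell markers were higher, 2 lower and 2 not past, where 15.3% of all 27763 rows were higher. Cd3e, Cd5, Cd8a and Cd6 were among the 12, and Cd8b1 did not pass. Of 9 markers of regulatory and follicular helper T cells, 3 of 5 tested were higher, and their sum was 12.5 to 13.8 FPKM in cNK and 29.4 to 30.4 in DN NK. The 3 were Cd4, Il2ra (the high-affinity IL-2 receptor chain, 0.215 ± 0.0480 and 5.86 ± 0.399 FPKM) and Ikzf2 (1.28 ± 0.0568 and 7.51 ± 0.129 FPKM). Below the filter, Cxcr5 was at 0.0188 ± 0.00647 and 0.661 ± 0.0581 FPKM and passed without one, and Foxp3 was at 0.0308 ± 0.0172 and 0.0657 ± 0.0216 FPKM and did not. Among 8 gamma delta T cell markers 5 were higher and 2 lower of 7 tested, and their sum was 79.8 to 89.5 FPKM in cNK and 104.1 to 116.2 in DN NK. Trdc and Trdv4 were the lower ones. Trdc was at 36.5 ± 0.533 FPKM in cNK and 10.9 ± 0.554 in DN NK. Trdv4 was at 46.9 ± 5.04 and 33.2 ± 2.38 FPKM. Among the higher ones, Tcrg-C4 went from 1.18 ± 0.130 to 51.7 ± 3.30 FPKM. Of those higher, Tcrg-C1, Tcrg-C2, Cd163l1 and Blk passed the filter through DN NK alone and so had to differ. The same holds for Cd4 and Il2ra above.

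All 13 B cell markers were higher in DN NK without a filter, and all 9 tested with it. Only 3 of the 13 had a mean of at least 1 FPKM in cNK, so most of the 9 passed the filter through DN NK alone and had to differ. Cd79a was at 0.318, 0.255 and 0.303 FPKM in cNK and at 13.0, 12.1 and 10.4 FPKM in DN NK. The list summed to 97.9 to 100.9 FPKM in cNK and to 228.8, 184.1 and 171.0 FPKM in DN NK replicates 1, 2 and 3. DN NK replicate 1 was the highest library for the B cell sum and for Btla. Replicates 2 and 3 came in opposite order, with Btla at 2.49 and 3.05 FPKM and B cell sums of 184.1 and 171.0. The part of B cell transcripts in the Btla result was not tested. Without DN NK replicate 1 the Btla log2 fold change was 5.35. The 13 matched markers of ILC1, ILC2 and ILC3 summed to 25.6 to 27.0 FPKM in cNK and 208.4 to 212.8 in DN NK, and all 10 tested were higher. Only 5 of the 13 had a mean of at least 1 FPKM in cNK, so the other tested ILC rows passed the filter mainly through DN NK. Of 12 myeloid and dendritic cell markers 3 were tested, with 1 higher and 1 lower, their sum was 190.1 to 203.5 FPKM in cNK and 131.8 to 143.5 in DN NK, and Csf1r was at 0.170 ± 0.0563 and 0.169 ± 0.0572 FPKM.

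**Figure D5:**
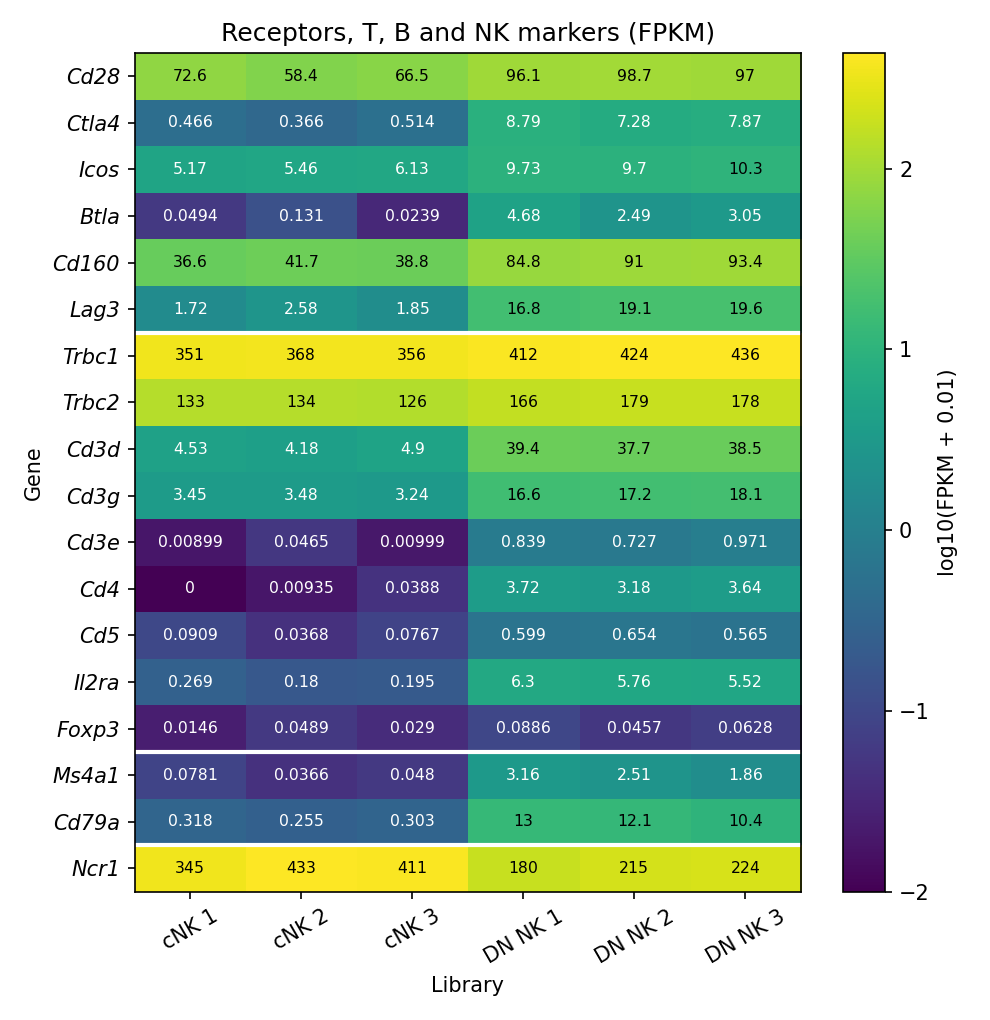
FPKM (printed) and log10(FPKM + 0.01) (colour) of 6 receptors, T cell markers (Trbc1 to Foxp3), B cell markers (Ms4a1, Cd79a) and Ncr1 in the 6 libraries. Trbc1 and Trbc2 lie above all 6 receptors in every library, Cd3e, Cd5 and Foxp3 below 1 FPKM in every library, and Btla in DN NK, at 2.49 to 4.68 FPKM, near Cd4 and Ms4a1.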

How the data were processed

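RNA sequencing of 6 libraries, 3 of cNK and 3 of DN NK, was grouped by the sample titles. Poly(A) libraries came from a TruSeq v2 kit and were read in pairs on an Illumina NovaSeq, per the labels' protocols. The submitters' processing notes name GRCm38 (mm10) as the build and list StringTie, HISAT and edgeR without versions. The authors deposited FPKM values and counts per gene row. Per the file headers these are counts, but 89.2 to 91.2% of values up to 30 in rows with 1 transcript matched the product of FPKM, length and a library constant after rounding up. They were therefore handled as estimated counts that the authors deposited. The receptors and gene lists (ligands, inhibitory and costimulatory receptors, signalling, transcription factors, and markers of T, regulatory T, gamma delta T, B, myeloid, ILC and NK cells) were chosen with earlier results of these data known.

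Rows reaching 1 FPKM in 3 or more libraries were fitted with edgeR 4.0.16 in R 4.3.3 (TMM, robust quasi-likelihood, 2-sided, group only, Benjamini-Hochberg over 11690 rows, threshold 0.05). Receptors below the filter were read from the same fit without it. The standard error is the log2 fold change divided by the square root of F. The biological coefficient of variation was 13.5%. All receptors, the 4 most abundant and 4 most changed genes of each list, and the 3 nearest rows per tested receptor (no gene models or immunoglobulin and T cell receptor segments) could be named with values. Pdcd1lg2, Tnfrsf14, Cd80, Cd86, Ptpn6, Ptpn11, Grb2, Cd3e, Cd5, Cd6, Cd8a, Foxp3, Cxcr5, Cd8b1, Csf1r, Ncr1 and the rows beside the receptors were chosen after their values were seen. DESeq2 1.42.0, limma 3.58.1, other scalings and filters, counts in read pairs, left-out libraries and a replicate block were alternatives. Of the 8 receptors, 5 matched the RefSeq promoter table (GRCm38.p6). Some list genes are not reported here by name.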

Additional observations from a re-analysis of the deposited data

How the results depend on the processing

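Each receptor kept its direction and its side of the threshold under all alternatives run, except Pdcd1, whose call was lost with the replicate block (fitted log2 fold change 7.11, which depends on the prior count, adjusted p = 0.0705; the cause was not tested). The genes past the threshold numbered 7215 (3602 higher, 3613 lower) and fell to 4614 (2278 higher, 2336 lower) with a mean of at least 5 FPKM, where fewer rows are tested. Ctla4 and Btla, and Pdcd1 and Havcr2, gave no value under that filter. With the replicate block 7222 genes passed, and it changed no other receptor's call. The labels do not say that the numbers pair the libraries: same-numbered libraries deviated together at r = 0.106, 0.0906 and 0.152, not all above 0.1, though each correlated best with its own number. Leaving out each library in turn gave log2 fold changes of 5.28 to 6.51 for Btla, 4.07 to 4.30 for Ctla4, 3.13 to 3.42 for Lag3, 1.23 to 1.31 for Cd160, 0.85 to 0.96 for Icos, 0.54 to 0.71 for Cd28 and 0.32 to 0.92 for Havcr2. For Pdcd1 and Havcr2, depth sets the limit, at about 13 and 22 read pairs over the DN NK group.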

Other observations

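Among the related genes, a few varied more within a group than between the groups. Vsir, which encodes the checkpoint receptor VISTA, was at 28.5, 9.99 and 16.7 FPKM in cNK and at 22.8, 25.5 and 8.58 FPKM in DN NK. Grb2, an adaptor that binds CD28, was at 52.8, 31.6 and 34.1 FPKM in cNK and at 48.9, 21.7 and 24.3 FPKM in DN NK, with replicate 1 the highest in both groups. Neither passed edgeR's test, with adjusted p of 0.896 and 0.640. They were singled out for this spread after their values were seen.

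Lag3 and Cd4, structural relatives that lie next to each other on chromosome 6, were both higher in DN NK, while Ptms on the other side of Lag3 was lower. At the Cd160 locus both nearest tested rows fell by small amounts, Rnf115 by 0.34 and Gpr89 by 0.23 on the log2 scale.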
